A study of Mus musculus with 840 samples.

Results

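Milk is made of caseins, which carry calcium and phosphate in micelles, and of whey proteins, which stay in solution. The alveolar cells of the late pregnant and lactating gland make nearly all of them, under prolactin, STAT5 and the transcription factor Elf5. In a gland that has not been through pregnancy, the hormone receptor negative (HRneg) luminal cells are the population from which alveolar cells arise, and hormone receptor positive (HRpos) luminal cells carry the estrogen and progesterone receptors. The 10 genes described here were chosen by name as the milk and whey protein genes of the tables, and all 10 of them had a row among the 39154 genes counted. They comprised the caseins Csn1s1, Csn1s2a, Csn2 and Csn3, the whey proteins Wap (whey acidic protein), Lalba (alpha-lactalbumin, the regulatory subunit of lactose synthase) and Wfdc18 (a small secreted protein of the same domain family as Wap), the iron carriers Trf (transferrin) and Ltf (lactoferrin), and Spp1 (osteopontin, a secreted phosphoprotein).

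The cells came from the mammary glands of SMACreERT2 or K5CreERT2 mice that also carried Rosa-N1ICD-IRES-nGFP, an allele that makes the active intracellular part of Notch1 and a nuclear GFP once Cre has acted. Tamoxifen was given at P21 and the chase lasted 1, 3, 4 or 6 weeks, so mice of a longer chase were also older. Both Cre lines act in basal cells, so GFP+ cells of the luminal and intermediate gates stand for cells of basal origin that carry active Notch1, and GFP- cells of the same mice are cells without recombination and not cells of untreated mice. Cells that stained for surface markers of blood and endothelial cells were excluded in the sort. Single cells were sorted by Epcam and CD49f into basal, intermediate and luminal gates. They were sequenced by Smart-seq2, a method that reads whole transcripts and counts reads and not molecules. SMACreERT2 plates covered 1 week (plate 1), 3 weeks (plates 2, 3 and E), 4 weeks (plate 4) and 6 weeks (plate 5), and K5CreERT2 plates G and L were described as 3 weeks, although the plate L names say 6 weeks. Each plate held cells of its own 1 or 2 mice, so the plate was the replicate.

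After filtering, 68.7% of 744 cells were kept, with 103081 to 3363298 reads each. They were 100 basal GFP+, 17 basal GFP-, 12 intermediate GFP-, 120 luminal GFP+ and 39 luminal GFP- cells, and the other 43.6% were intermediate GFP+ cells (4, 3, 13, 19, 60, 63 and 61 on plates 1, 2, 3, 4, E, G and L). The sorted gates held to their markers for the most part, with a list of 10 basal genes summing to 3320 to 19835 CPM (counts per 1000000 reads of the cells summed) in basal GFP+ plates and 34.5 to 1413 CPM in luminal GFP+ plates. Batch 3, with plates E, G and L, was read deeper (median 1499630 reads per kept cell) than batch 1 (402767) and batch 2 (397251), so shares of cells were taken after each cell had been thinned to 100000 reads. In the 1-week luminal GFP+ sum, 1 of the 8 cells had 37% of its reads on a salivary gland list with 0 Dcpp1 reads, and it held no read of Csn3, Wfdc18 or Ltf and 1 of Trf. Without that cell the plate rose from 332 to 372 CPM for Csn3, and no call reported here was lost. The neutrophil list, whose cells store lactoferrin, summed to at most 30.8 CPM in any sum.

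The sequences before the start of 5 members are shown, with Wfdc18 and Ltf read in many luminal cells and Csn1s1, Csn2 and Wap in few cells of any kind. The choice is not complete, since Csn1s2a, Spp1 and Lalba were also rarely read and had a window that is not printed. The sequences are RefSeq windows on GRCm38.p6, written 5′ to 3′ on the strand of the gene. In Csn1s1 and Csn2, capitals mark TTCNNNGAA, the palindromic letters that STAT factors are known to bind, searched on both strands.
Csn1s1, chr5:87665958-87666207, plus strand: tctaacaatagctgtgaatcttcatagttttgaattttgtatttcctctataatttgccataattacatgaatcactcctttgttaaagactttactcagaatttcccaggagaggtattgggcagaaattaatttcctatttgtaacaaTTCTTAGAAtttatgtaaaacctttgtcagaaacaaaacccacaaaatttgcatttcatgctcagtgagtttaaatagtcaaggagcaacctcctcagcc
Csn2, chr5:87699500-87699528, minus strand: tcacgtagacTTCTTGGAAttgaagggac
Wap, chr11:6638650-6638899, minus strand: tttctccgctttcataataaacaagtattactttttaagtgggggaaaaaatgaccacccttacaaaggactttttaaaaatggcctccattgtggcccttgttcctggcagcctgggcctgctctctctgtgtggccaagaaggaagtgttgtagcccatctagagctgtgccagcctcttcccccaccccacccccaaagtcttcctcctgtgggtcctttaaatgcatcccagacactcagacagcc
Wfdc18, chr11:83708754-83709003, plus strand: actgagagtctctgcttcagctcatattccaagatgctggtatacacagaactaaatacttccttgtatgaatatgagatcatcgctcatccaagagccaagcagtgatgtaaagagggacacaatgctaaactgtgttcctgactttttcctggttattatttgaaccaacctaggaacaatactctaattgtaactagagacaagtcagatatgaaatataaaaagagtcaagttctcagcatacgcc
Ltf, chr9:111019042-111019291, plus strand: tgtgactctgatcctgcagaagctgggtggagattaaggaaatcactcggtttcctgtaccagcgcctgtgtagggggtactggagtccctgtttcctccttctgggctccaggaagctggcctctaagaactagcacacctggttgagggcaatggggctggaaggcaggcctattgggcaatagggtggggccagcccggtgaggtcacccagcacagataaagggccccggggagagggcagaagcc

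Promoter windows were at hand for 8 of the 10 members, and the others were Csn3 and Trf. Positions are counted back from the RefSeq start, which for Csn2 is 87699425, so that the site printed for Csn2 lies before that start but inside the span that the GENCODE annotation gives the gene. TTCNNNGAA stood at -100 to -92 from the start of Csn1s1 and at -93 to -85 from that of Csn2, and in 2306 of all 32851 windows of 250 bases (7.02%). TATAAA, searched on both strands with no overlap with the first motif, stood at -31 to -26 in Wfdc18 and at -211 to -206 in Spp1, and in 4063 of all windows (12.4%). The other members had neither set of letters in these 250 bases.

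In the kept cells the 10 genes fell into a set that was read in many cells and a set that was almost silent. Trf had at least 1 read in 48.1% of these cells, Wfdc18 in 45.4%, Csn3 in 39.9% and Ltf in 20.2%. Lalba had a read in 14 cells, Csn1s2a and Wap in 6 cells each, Csn1s1 in 5, Spp1 in 4 and Csn2 in 3. The caseins thus differed widely among themselves, although Csn1s1 (chr5:87666208-87682578, plus strand), Csn2 (chr5:87692624-87699630, minus strand), Csn1s2a (chr5:87774567-87788797, plus strand) and Csn3 (chr5:87925579-87932665, plus strand) are neighbours in the casein cluster on GRCm38. Per kilobase of transcript, the mean level over 6 luminal GFP+ plates was 1918 ± 662 CPM per kb for Wfdc18 and 792 ± 422 CPM per kb for Csn3 (SD). On the same scale Trf had 122.5 ± 124.1 and Ltf 108.5 ± 131.95 CPM per kb, and the spread of that pair overlapped. Lalba, at 5.05 ± 5.95 CPM per kb, was the highest of the rarely read genes apart from Csn1s2a, whose 5.06 ± 12.1 CPM per kb came almost wholly from 1 cell.

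**Figure D1:**
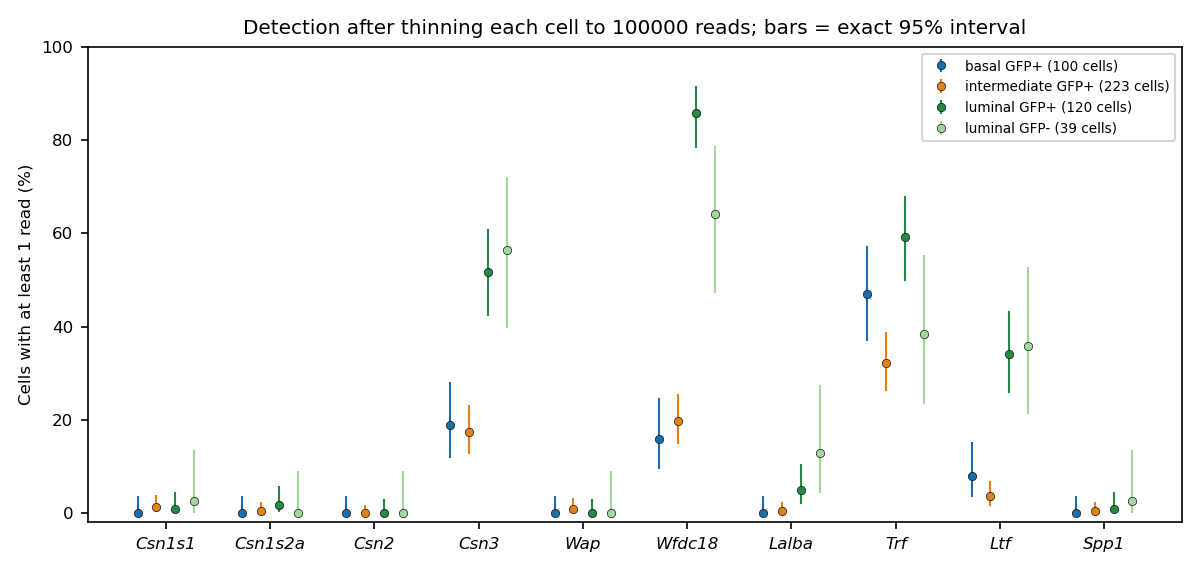
Share of kept cells (percent, vertical axis) with at least 1 read of each member after thinning to 100000 reads, for basal GFP+, intermediate GFP+, luminal GFP+ and luminal GFP- cells, with exact 95% binomial intervals that cover counting error only. Wfdc18 stood highest at 85.8% of luminal GFP+ cells, Trf was above 30% in each group shown, and the other 6 genes were at 12.8% or less.

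Csn3 encodes kappa-casein, the casein that coats the micelle and keeps it in solution, and it was the only casein read in more than a handful of cells. After thinning it was detected in 62 of 120 luminal GFP+ cells (51.7%, exact 95% interval 42.4 to 60.9%) and in 22 of 39 luminal GFP- cells (56.4%, 39.6 to 72.2%). In basal GFP+ cells it was read in 19 of 100 (19%, 11.8 to 28.1%) and in intermediate GFP+ cells in 39 (17.5%, 12.7 to 23.1%). At 10 reads or more the counts were 49 luminal GFP+, 21 luminal GFP-, 10 basal GFP+ and 24 intermediate GFP+ cells. Summed over the cells of a plate, luminal GFP+ Csn3 was 332 CPM on plate 1, 293.6 on plate 3, 1056 on plate 4, 1005 on plate 5, 1331 on plate G and 694 on plate L. The intermediate GFP+ sums ran from 20.6 CPM on plate G to 128.8 on plate 1, with a median of 60.3 over 7 plates. The basal GFP+ sums were 15.2 CPM on plate 1, 76.3 on plate 3, 0.152 on plate 4, 0 on plate G and 50.5 on plate L. No luminal GFP+ sum came down to the highest intermediate or basal GFP+ sum, but on plate 1 this rested on 1 cell. Without it that sum was 1.25 CPM, below basal plates 1, 3 and L and all intermediate plates, and by detection plate 1 had Csn3 in 1 of 8 luminal and 10 of 50 basal GFP+ cells.

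Wfdc18 (chr11:83709015-83711348, plus strand) was the member most evenly present in luminal GFP+ cells. It was detected in 85.8% of the 120 cells after thinning (exact 95% interval 78.3 to 91.5%), against 25 of 39 luminal GFP- cells (64.1%, 47.2 to 78.8%), 44 intermediate GFP+ cells (19.7%, 14.7 to 25.6%) and 16 of 100 basal GFP+ cells (16%, 9.43 to 24.7%). The median luminal GFP+ cell held 886 CPM, where it held 38 CPM of Csn3, 41.2 CPM of Trf and no read of Ltf. Luminal GFP+ plate sums of Wfdc18 were 917, 1310, 1367, 724.4, 1176 and 501 CPM on plates 1, 3, 4, 5, G and L. In the intermediate gate they lay between 0.458 and 52.3 CPM with a median of 12.8. In the basal GFP+ gate they were 105.5, 12.6, 5.63, 0 and 0 CPM on plates 1, 3, 4, G and L, so every luminal GFP+ plate was above every other GFP+ plate of those gates. Neither the 17 basal GFP- nor the 12 intermediate GFP- cells had a read of it after thinning, which allows shares of up to 17.6% and 25%.

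Ltf (chr9:111019271-111042767, plus strand), the iron-binding protein of milk that also limits bacterial growth, was read in fewer cells, and 7 luminal GFP+ cells held over 1000 CPM of it, against 55 for Wfdc18 and 27 for Csn3. It was detected in 41 of 120 luminal GFP+ cells (34.2%, exact 95% interval 25.8 to 43.4%) and 14 of 39 luminal GFP- cells (35.9%, 21.2 to 52.8%), and in 8 of 100 basal GFP+ (8%, 3.52 to 15.2%) and 8 intermediate GFP+ cells (3.59%, 1.56 to 6.95%). No basal GFP+ cell had 10 reads after thinning. The luminal GFP+ sums were 954, 54.7, 72.4, 468, 221.6 and 15.4 CPM on plates 1, 3, 4, 5, G and L, and the basal GFP+ sums were 0.541, 1.75, 0.152, 0 and 0 CPM on plates 1, 3, 4, G and L. Intermediate GFP+ plates were at 5.84 CPM or below, except plate L at 268.2. A few cells made up most of these sums. On plate 1 a single luminal GFP+ cell held 99.8% of the Ltf reads and 99.7% of the Csn3 reads of its sum, at 10805 and 3753 CPM, and the plate was at 2.24 CPM of Ltf and 1.25 CPM of Csn3 without it. On plate L a single intermediate GFP+ cell held 76.9% of the Ltf reads at 12887 CPM, together with 1516 CPM of Csn3 and 510.6 CPM of Wfdc18, and the intermediate sum was at 63 CPM of Ltf without it.

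Trf (chr9:103204001-103230444, minus strand), which carries iron in plasma and is also made by mammary epithelium, had no such order of gates. It was detected in 71 of 120 luminal GFP+ (59.2%, exact 95% interval 49.8 to 68%), 47 of 100 basal GFP+ (47%, 36.9 to 57.2%), 15 of 39 luminal GFP- (38.5%, 23.4 to 55.4%) and 72 intermediate GFP+ cells (32.3%, 26.2 to 38.9%). Luminal GFP+ plate sums ran from 29.6 to 811 CPM with a median of 198.1, intermediate GFP+ sums from 3.67 to 403 with a median of 155.1, and basal GFP+ sums from 0 to 277.3 with a median of 80.8. The stretch from 29.6 to 277.3 CPM was common to all 3 ranges, and luminal plates 4 and 5, at 598 and 811 CPM, lay above every intermediate and basal plate. The single cell with the most Trf, a luminal GFP+ cell of plate 4, had 20682 CPM and gave 79.2% of the reads of its sum, which stood at 127.1 CPM without it in place of 598.

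**Figure D2:**
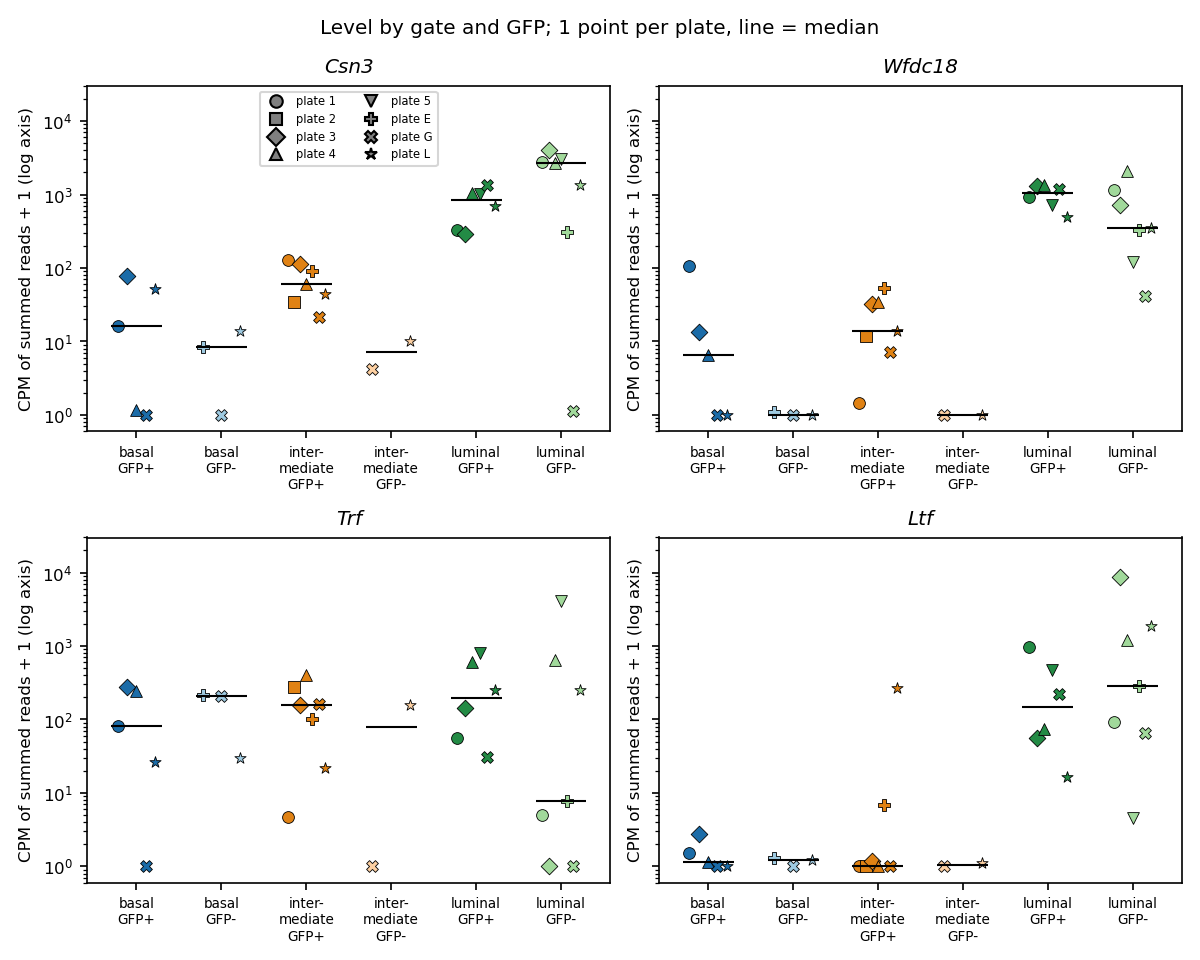
Level of Csn3, Wfdc18, Trf and Ltf in each gate and GFP class, as CPM of the reads summed over the kept cells of a plate, plus 1, on a log axis; each point is a plate with at least 3 kept cells and the line is the median. The luminal GFP+ points of Csn3, Wfdc18 and Ltf lie above all basal GFP+ points, and those of Trf do not.

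Luminal GFP+ cells were set against basal GFP+ cells of the same plates, the ends of the conversion that active Notch1 is held to drive, over the 5 plates that held both (1, 3, 4, G and L). Csn3, Wfdc18, Trf and Ltf had enough reads to be tested, and the other 6 members did not. Ltf passed, with an adjusted p of 0.031 by the edgeR quasi-likelihood test with Benjamini-Hochberg adjustment. Its log2 fold change was 8.95 with an SE of 1.25, and it was higher in the luminal cells of 5 of 5 plates. This was 1 of the 4 members tested, of 10 in all, beside 0.562% of the 12091 genes tested. Ltf had 32 reads over all basal GFP+ cells and too few for the test of intermediate against basal cells. It thus entered this test through its luminal reads, and its call and lack of overlap between plates are given as a description. Since plates G and L had no basal read of Ltf, the size of that fold depends on the prior count of the fit. The call was lost without the cell of most Ltf reads on plate 1 (log2 fold change 6.75, adjusted p = 0.149), a setting chosen after seeing the data. It was also lost without plate 1 (adjusted p = 0.153), plate 4 (0.101), plate G (0.0759) or plate L (0.0652), and kept without plate 3 (0.0137).

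Wfdc18 had a larger level but a wider error on the same plates, with a log2 fold change of 8.05 ± 1.76 and an adjusted p of 0.109 by edgeR. Basal plates G and L had no read of Wfdc18 either, so the size of this fold too depends on the prior count. Csn3 had 5.68 ± 1.94 and an adjusted p of 0.288, and Trf 1.44 ± 1.26 and 0.763. Wfdc18 and Csn3 were higher in the luminal cells of 5 of 5 plates and Trf in 3 of 5. Csn3, Wfdc18 and Ltf had no overlap between their luminal and basal plates, a state that 2.72% of the genes tested shared in this direction. For Csn3 this and the 5 of 5 plates were lost without 1 cell, since luminal plate 1 then stood at 1.25 CPM beside 15.2 CPM in basal cells. DESeq2, which called 11.3% of these genes against the 0.562% of edgeR, called all 3 of them, with adjusted p of 0.0061 for Csn3, 8.4e-06 for Wfdc18 and 9.7e-19 for Ltf. Thinned cells gave an edgeR adjusted p of 0.0064 for Wfdc18 and 0.0506 for Csn3.

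The intermediate gate, which in wild-type glands holds few cells, was compared with the gates on either side. Against intermediate GFP+ cells over 5 plates, luminal GFP+ cells had a log2 fold change of 6.37 ± 0.87 for Wfdc18 (adjusted p = 0.108 by edgeR), 3.24 ± 0.81 for Csn3 (0.304), 10.07 ± 3.23 for Ltf (0.503) and 0.93 ± 1.02 for Trf (0.978). Intermediate GFP+ cells of plates 1, 4 and G had no read of Ltf, so the size of its fold depends on the prior count of the fit. No member passed, as did no other gene by edgeR (0% of 11979), with 822 genes at an unadjusted p under 0.05 and 799 (6.67%) called by DESeq2, Csn3, Wfdc18 and Ltf among them. Wfdc18 and Csn3 nevertheless did not overlap between the gates, which held for 2.1% of the genes tested. Wfdc18 passed by edgeR with thinned cells (adjusted p = 0.019), without the plate term (0.0092) and without plate 1 (0.0487), and it was higher in luminal cells on 5 of 5 plates, as was Csn3 as long as the same plate 1 cell was kept, with Ltf higher on 4 of 5.

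Between intermediate and basal GFP+ cells the log2 fold change of Csn3 was 3.38 ± 1.64, that of Wfdc18 2.91 ± 2.38 and that of Trf -0.03 ± 1.56, each with an edgeR adjusted p of 1 over 5 plates. Ltf had too few reads for this test. By edgeR 0% of 12348 genes were called and 1.48% had an unadjusted p under 0.05, DESeq2 called 60, and 0.194% of genes were higher without overlap, none of them a member. Csn3 and Wfdc18 were higher in the intermediate cells of 4 of 5 plates. The sign for Wfdc18 turned without the plate term (-0.58), and that for Trf turned in several settings.

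**Figure D3:**
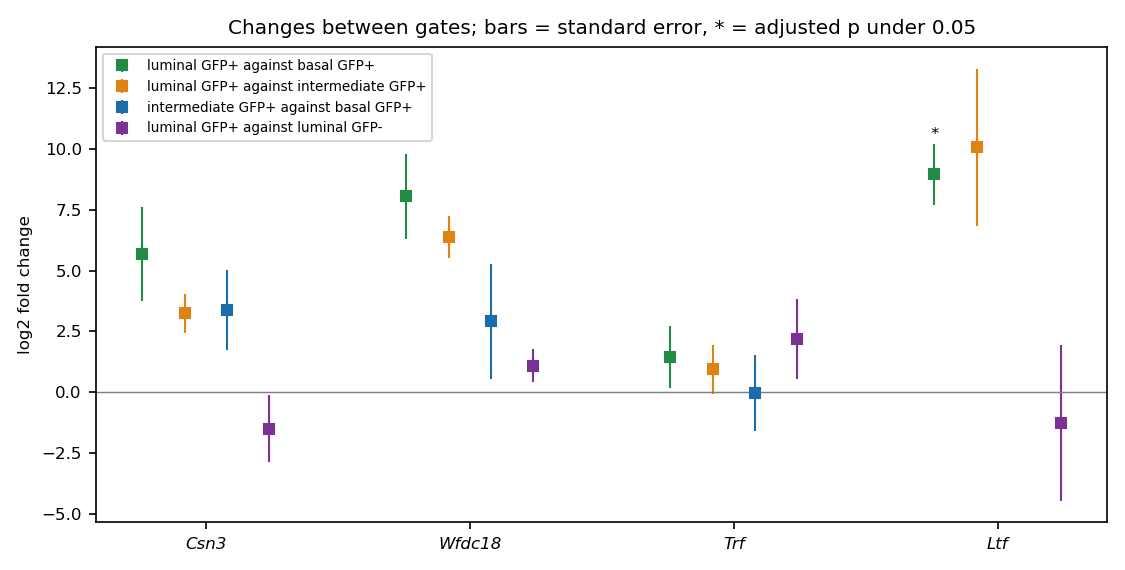
Log2 fold change of Csn3, Wfdc18, Trf and Ltf in the 4 comparisons between gates or GFP classes, by edgeR over 5 or 6 plates. Bars are standard errors worked back from the fold change and the F statistic of the test, and the star marks an adjusted p under 0.05. The star stands over Ltf in luminal against basal GFP+ cells, at 8.95, and Trf lies within 2.17 of 0 throughout.

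Luminal GFP+ cells were also set against luminal GFP- cells, the unrecombined luminal cells of the same mice. Csn3 in luminal GFP- cells was 2776 CPM on plate 1, 4004 on plate 3, 2644 on plate 4, 3061 on plate 5, 310 on plate E, 0.141 on plate G and 1349 on plate L. On 5 of the 6 plates with both classes it was thus lower in GFP+ cells, plate G being the exception. The log2 fold change was -1.51 ± 1.38 (adjusted p = 1 by edgeR), and -2.17 without plate G. Luminal GFP- Wfdc18 was 1136, 708, 2095, 120, 329, 40.3 and 346 CPM on plates 1, 3, 4, 5, E, G and L, and it was higher in GFP+ cells on 4 of 6 plates (log2 fold change 1.09 ± 0.67). Of the luminal GFP- Csn3 reads, 1 cell gave 45.2%, 77.8%, 69%, 34.8%, 100%, 100% and 54.8% on these plates in turn. Without their top cell the GFP- cells of plate 4 stood at 960 CPM of Csn3. The GFP+ cells of that plate had 1056 CPM, and 806 CPM without their own top cell.

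The iron carriers varied more among luminal GFP- plates than between the classes. Ltf ran there from 3.52 CPM on plate 5 to 8642 on plate 3, where 1 of 3 cells gave 94.9% of the reads. Trf ran from 0 on plates 3 and G to 4133 on plate 5. The log2 fold changes were -1.27 ± 3.19 for Ltf and 2.17 ± 1.65 for Trf, higher in GFP+ cells on 3 of 6 and 4 of 6 plates. Lalba was tested too and had 3.12 ± 3.07. The fits of Trf and Lalba went against the means over plates, which were 315 CPM of Trf in GFP+ and 720 in GFP- cells and 3.90 CPM of Lalba in GFP+ and 5.42 in GFP- cells, and both turned without the plate term (-1.45 and -0.81). No member passed in this comparison, where edgeR called 0% of 10929 genes, with 436 at an unadjusted p under 0.05 and 2.14% called by DESeq2. No member was free of overlap either, beside 0.284% of genes that were higher in GFP+ cells without overlap.

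The luminal GFP- gate was not the same population on each plate, and within it Csn3 and Wfdc18 were read mostly in cells with Kit. In batches 1 and 2 the deposited annotation calls these cells ER-neg, and Csn3 was detected in 17 of 22 of them, against 5 of 17 luminal GFP- cells of batch 3, which carry no such term. On plate G the list of 10 HRpos genes summed to 9208 CPM, its highest value, 5 of the 6 cells had a read of Esr1, and Elf5 was at 0. The term ER-neg did not hold for each cell that carried it, since Esr1 was read in 2 of 6 of these cells on plate 1 (195.7 CPM in the sum) and 3 of 7 on plate 5 (125.6 CPM), beside 209.9 CPM on plate G, and in none on plates 3 and 4. The HRpos list summed to 2491 CPM on plate 1 and 3895 CPM on plate 5. Csn3 nevertheless stood at 2776 and 3061 CPM there, so its plate sums did not follow this list throughout. In the thinned luminal GFP- cells, Csn3 was detected in 21 of 24 cells with the HRneg receptor gene Kit and 1 of 15 without, and in 2 of 15 with the estrogen receptor gene Esr1 and 20 of 24 without. Wfdc18 was detected in 23 of 24 cells with Kit and 2 of 15 without. The part of this makeup in the GFP comparison was not tested.

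Within the luminal GFP+ gate the same genes went with Kit as well. Wfdc18 was detected in 96.2% of the cells with Kit and in 1 of the 14 without, Csn3 in 56.6% and 2 of 14, Trf in 64.2% and 3 of 14, and Ltf in 38.7% and 0 of 14, which allows a share of up to 21.4%. Kit was detected in 17 intermediate GFP+ cells, and Wfdc18 was read in 70.6% of these and 15.5% of the others, Csn3 in 35.3% and 16%, and Ltf in 23.5% and 1.94%. These are counts over cells that share plates and mice, given as a description. All 4 of Csn3, Wfdc18, Trf and Ltf were detected in 18 luminal GFP+, 7 luminal GFP-, 3 intermediate GFP+ and 2 basal GFP+ cells, and none of them in 8.33%, 30.8%, 47.1% and 37% of these groups.

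**Figure D4:**
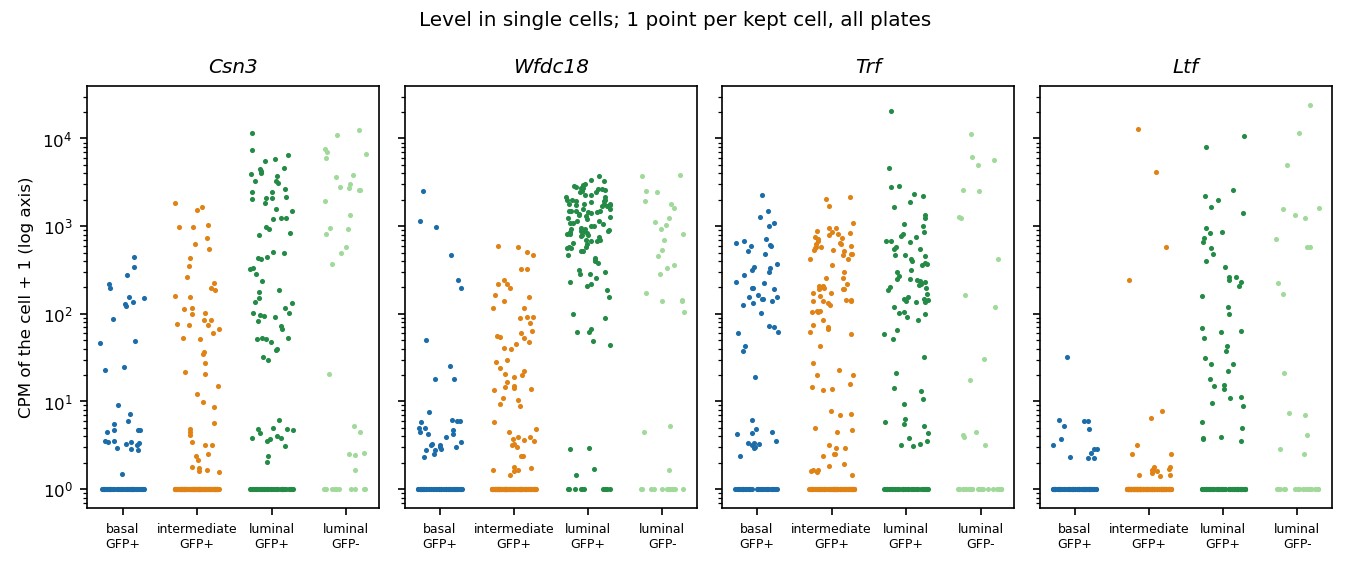
Level in CPM, plus 1, of Csn3, Wfdc18, Trf and Ltf in each kept cell on a log axis, by gate and GFP class, with all plates together. Wfdc18 forms a dense band in luminal GFP+ cells around its median of 886 CPM, and Ltf is at 0 in most cells of each class with single cells up to 23980 CPM.

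Weeks of chase were followed in SMACreERT2 luminal GFP+ cells, which had at least 3 kept cells on 1 plate at each of 1, 3, 4 and 6 weeks (the 2 kept cells of plate 2, at 3 weeks, were left out), the first and last in batch 1 and the middle times in batch 2. Trf was 55.3, 141.6, 598 and 811 CPM at these times, and it was detected in 2 of 8, 5 of 11, 26 of 51 and 32 of 37 thinned cells. It was higher at each later time, as were 5.73% of the 13010 genes tested, and within each batch. The slope was 0.82 ± 0.16 log2 units per week (adjusted p = 0.657 by edgeR, which called 0% of genes, with 686 at an unadjusted p under 0.05). DESeq2, with 1.61% of genes called, gave it an adjusted p of 2.8e-05. Without the plate 4 cell of 20682 CPM the 4-week value was 127.1 CPM, below that of 3 weeks, and the slope was 0.73. Luminal GFP- cells of the same plates held 3.98, 0, 646 and 4133 CPM of Trf. It was detected in 2 of 6, 0 of 3, 4 of 6 and 6 of 7 of those thinned cells. Higher Trf at 4 and 6 weeks was thus also seen in cells without recombination, which was not tested.

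Csn3 was 332, 293.6, 1056 and 1005 CPM at 1, 3, 4 and 6 weeks, a slope of 0.35 ± 0.15 per week (adjusted p = 0.938 by edgeR), and was detected in 1 of 8, 8 of 11, 27 of 51 and 21 of 37 cells. Its 1-week value came almost wholly from 1 cell and was 1.25 CPM without it. Wfdc18 was 917, 1310, 1367 and 724.4 CPM with a slope of -0.08 ± 0.12, and was detected in 4 of 8 cells at 1 week and in 10 of 11, 46 of 51 and 35 of 37 afterwards. Ltf was 954, 54.7, 72.4 and 468 CPM with a slope of -0.23 ± 0.28, which turned to 1.11 without plate 1 and to 1.40 without the single cell that carried that plate. Ltf was detected in 1 of 8, 3 of 11, 12 of 51 and 21 of 37 cells, so its share of cells and its summed level gave different orders of time. Chase, mice and, in part, batch cannot be told apart with 1 plate at each time. The age of the mice rose with chase, so age and chase cannot be told apart either.

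**Figure D5:**
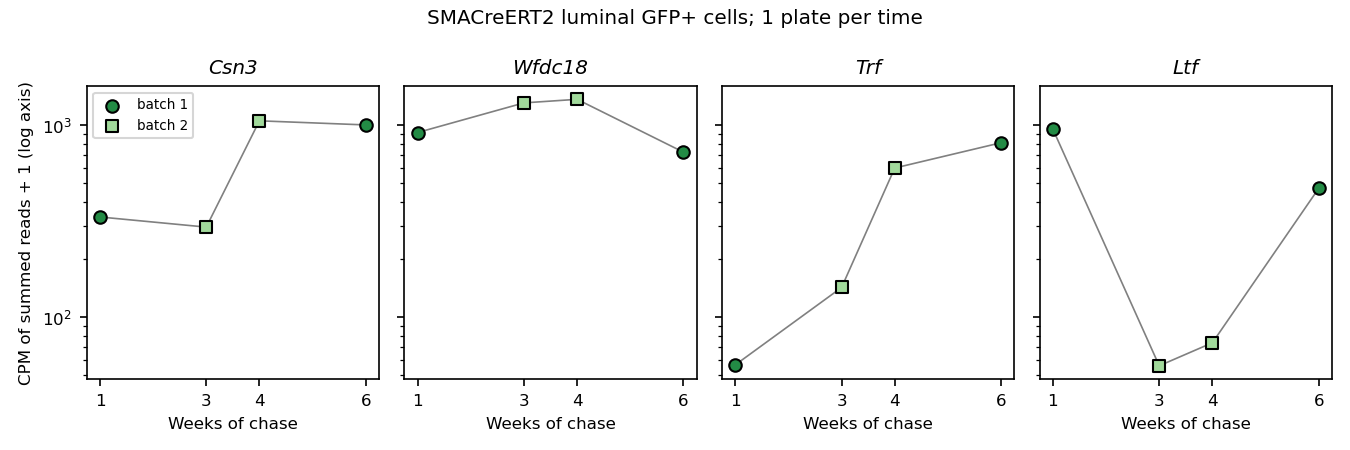
Level in CPM, plus 1, on a log axis of Csn3, Wfdc18, Trf and Ltf in SMACreERT2 luminal GFP+ cells against weeks of chase, with 1 plate at each time and the batch shown by shape. Trf rises from 55.3 CPM at 1 week to 811 CPM at 6 weeks, and Wfdc18 stays between 724.4 and 1367 CPM. Luminal GFP- cells of these plates, not shown, held 3.98 CPM of Trf at 1 week and 4133 CPM at 6 weeks.

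Among GFP+ cells the Cre lines could be set side by side within batch 3 in the intermediate gate, with SMACreERT2 on plate E and K5CreERT2 on plates G and L. Csn3 was 89.6 CPM on plate E, 20.6 on plate G and 43.4 on plate L, and Wfdc18 was 52.3, 6.12 and 12.8 CPM. Trf was 99.8, 163.6 and 21 CPM and Ltf 5.84, 0 and 268.2. Wfdc18 was detected in 24 of 60, 8 of 63 and 4 of 61 cells of these plates after thinning. The same plates held luminal GFP- cells, with Trf at 6.87, 0 and 249.8 CPM and Ltf at 286.6, 65.5 and 1881 CPM on plates E, G and L. They also held basal GFP- cells, with Trf at 212.8, 208.8 and 28.95 CPM. These GFP- sums rested on single cells. In basal GFP- cells 1 cell gave 78.2%, 99.9% and 100% of the Trf reads. In luminal GFP- cells 1 cell gave 100%, 100% and 91.5% of the Ltf reads, and 100% and 95% of the Trf reads on plates E and L. Of the intermediate GFP+ Ltf reads, 1 cell gave 97.6% on plate E and 76.9% on plate L. For intermediate GFP+ Csn3, 1 cell gave 37.3%, 52.3% and 56% of the reads on plates E, G and L. For Wfdc18 these shares were 14.7%, 69.2% and 63.8%. With 1 SMACreERT2 plate there was no test, and the chase of plate L is 3 weeks by its description but 6 weeks by its names. In the luminal GFP+ gate the K5CreERT2 plates G and L were all of batch 3 and the SMACreERT2 plates of batches 1 and 2, so line and batch cannot be told apart there.

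The 6 rarely read members had reads in 35 cells, and in 17 of these with 10 reads or more. Lalba (chr15:98480400-98482721, minus strand), which is switched on late in pregnancy, was the one most bound to the luminal gate. It was detected after thinning in 6 of 120 luminal GFP+ cells (5%, exact 95% interval 1.86 to 10.6%) and 5 of 39 luminal GFP- cells (12.8%, 4.30 to 27.4%), in 1 intermediate GFP+ cells (0.448%, 0.0114 to 2.47%) and in 0 of 100 basal GFP+ cells, which allows a share of up to 3%. The cell with most reads was a luminal GFP- cell of plate L at 89.7 CPM, and the next were luminal GFP+ cells of plate 4 with 78 reads (185.2 CPM) and of plate 5 with 69 (177.5 CPM). The plate L cell also held 3843 CPM of Csn3, 821 of Wfdc18, 1233 of Trf and 72 reads of Spp1.

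Csn1s1 and Csn1s2a, which encode alpha-caseins, were each carried by 1 cell of plate 5. A luminal GFP- cell held Csn1s1 at 929 CPM (89.1% of all its reads in kept cells), and a luminal GFP+ cell held Csn1s2a at 802 CPM (91.1%). The next were a luminal GFP+ cell of plate 4 with 28 Csn1s1 reads and an intermediate GFP+ cell of plate L with 15 Csn1s2a and 15 Wap reads. Csn2, which encodes beta-casein, the most abundant casein of mouse milk, had 1 read in each of 3 cells and none after thinning, so 0 of 120 luminal GFP+ cells allows a share of up to 2.50%. Wap (chr11:6635482-6638637, minus strand) had no read in the 120 luminal GFP+ and 39 luminal GFP- cells. Its 27 reads lay in 1 basal GFP+, 3 intermediate GFP+ and 2 intermediate GFP- cells, all of K5CreERT2 plates. These are unthinned reads, and those plates were read deeper than all SMACreERT2 plates but plate E. Apart from the cell with 15 reads, each held 4 reads of Wap or fewer. Spp1 (chr5:104435118-104441050, plus strand) had 509 of its 619 reads (82.2%) in 1 intermediate GFP+ cell of plate G, and 32 in a luminal GFP+ cell of plate 1. These genes are thus described by single cells, and no group was tested for them.

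Of 20 other genes of milk secretion, 10 were tested in luminal against basal GFP+ cells and none passed, with a median log2 fold change of 0.34 beside -0.04 over all genes. At an unadjusted p under 0.05, which 11.5% of all genes had in either direction, 3 were higher and 1 lower. The same list had 11 genes tested against intermediate GFP+ cells (median 0.70 beside 0.07), 9 in intermediate against basal GFP+ cells (0.40 beside -0.06), 12 against luminal GFP- cells (-0.74 beside 0.27) and 12 over the weeks of chase (0.44 per week beside 0.02), and none of them passed. At an unadjusted p under 0.05, 6 of the 12 were higher with chase, beside 5.27% of all genes in either direction, and 4 of the 12 were lower in luminal GFP+ than GFP- cells, beside 3.99%. Btn1a1, which encodes butyrophilin of the milk fat globule membrane and is named here after its values were seen, had log2 fold changes of 8.81 ± 1.73 against basal (adjusted p = 0.0811 by edgeR) and -2.14 ± 0.58 against luminal GFP- cells (adjusted p = 1). It had too few reads for the test of intermediate against basal GFP+ cells. Btn1a1 thus entered the test against basal cells through its luminal reads, and its values are given as a description.

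Of 18 genes of lactogenic signalling, 18 were tested in luminal against basal GFP+ cells and 1 passed, beside 0.562% of all genes tested. This was Elf5, with a log2 fold change of 7.23 ± 0.93 (adjusted p = 0.031 by edgeR) and higher values in 5 of 5 plates. It was detected in 81 of 120 luminal GFP+ and 2 of 100 basal GFP+ cells. Elf5 had too few reads for the test of intermediate against basal GFP+ cells, so it too entered this test through its luminal reads. The median of the list was -0.36, and it was 0.18, 0.05, 0.01 and 0.06 in the intermediate against basal, luminal against intermediate, luminal GFP+ against GFP- and chase comparisons, where none passed. In luminal GFP+ cells Csn3 was detected in 51 of 81 cells with Elf5 and 11 of 39 without, and Wfdc18 in 79 and 24.

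The genes whose log2(CPM + 1) ran most like that of each member over the 30 sums of a gate, GFP class and plate were found among 9132 genes, as a description over sums that share plates and depth. For Csn3 these were Muc20 (Pearson r = 0.851), Snorc (0.840) and Kcnn4 (0.824), and for Wfdc18 Aldoc (0.903), Snorc (0.903) and Slc5a8 (0.877). For Ltf they were Atp6v1b1 (0.836), Ntn1 (0.827) and the HRneg marker Aldh1a3 (0.818). For Trf they were Pibf1 (0.758), Zswim6 (0.755) and Dpm2 (0.718), and for Lalba Btn1a1 (0.657), Clic6 (0.648) and Muc20 (0.647). Among the members, r was 0.797 between Csn3 and Wfdc18, 0.793 between Wfdc18 and Ltf, 0.673 between Csn3 and Ltf, and -0.101 between Trf and Ltf.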

How the data were processed

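The authors deposited read counts per gene for single cells in 3 batches, without normalization, and a cell annotation with gate, GFP class, plate and chase. Per the labels and methods, Smart-seq2 libraries were mapped to GRCm38 with STAR 2.7.7a and counted with HTSeq 0.13.5. Trim Galore 0.6.5, R 4.3.0 and Seurat 4.3.0.1 stand in the submitters' processing notes. The count tables hold 840 cells, and the second run of the 6-week plate (96 cells) was left out.

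Following the study's methods, a kept cell had more than 100000 reads, more than 1400 genes, 2 or more Epcam reads, no more than 1 Dcpp1 read and a mitochondrial share below 10%. The methods do not say whether the Epcam and Dcpp1 limits were set on raw reads, as was done here. The 511 cells kept are more than the study reports, so they are not its set of cells. The share kept was 52.4% for luminal GFP+ and 94.4% for basal GFP- cells. Cells were single wells and no doublet caller was run. Reads were summed per gate, GFP class and plate with at least 3 kept cells. The sums were tested with the edgeR 4.0.16 quasi-likelihood test (filterByExpr, TMM, plate as block, two-sided, Benjamini-Hochberg adjusted p under 0.05 over all genes), and with DESeq2 1.42.0 as an alternative, in R 4.3.3. The chase slope had no covariate. The SE, or ± value, of a log2 fold change or slope was its absolute value divided by the square root of the F statistic. It is thus not an error that edgeR reports, and it shares the dependence of the fold on the prior count. Plates pair the groups because groups of a plate share mice. Other alternatives were normalization by size factors, no filter on low counts, thinned cells, looser filters on Dcpp1 and depth, the Cre line at a chase time as unit, no plate term and leaving out each plate. Leaving out 1 salivary-like cell, or the cell with most reads of a gene, was chosen after seeing the data. Intervals are Clopper-Pearson at 95%, the limit for a count of 0 is 3 counts, and both cover counting error only.

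The members and gene lists were chosen with earlier results of these data known. All 10 members are named, and of the other lists the genes that passed, and Btn1a1, which did not pass. Gene symbols and transcript lengths are those of the GENCODE annotation given for the build. Transcript lengths are of 1 transcript per gene. No protein sequence was used here.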

Additional observations from a re-analysis of the deposited data

Results flagged for a closer look

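Of 16 groups of plates, 4 held a plate far from the others, by a limit that normally spread values pass in about 1 in 20 groups. Sums of CPM are not spread in that way, so this rate does not apply and no excess can be read from the count. In the 4 flagged sums, given next, 1 cell held 50.3%, 32.3%, 94.9% and 76.9% of the reads in turn. In basal GFP+ cells Wfdc18 was 105.5 CPM on plate 1, the highest of 5 plates. In luminal GFP- cells Trf was 4133 CPM on plate 5, the highest of 7 plates, and Ltf was 8642 CPM on plate 3. In intermediate GFP+ cells Ltf was 268.2 CPM on plate L.

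Cells that the filters removed carried milk genes as well. Cells with over 100 Dcpp1 reads, a salivary gland gene, held 2054 CPM of Wfdc18, with a read in 46 of 48 cells. Cells with 2 to 100 Dcpp1 reads that passed the other filters held 552 CPM of Trf, with a read in 65.6% of the cells. The same cells held 15.98 CPM of Csn2, whose 765 reads lay in 2 cells.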

How the results depend on the processing

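The plate was the replicate block. Genes called are given here as a share of the genes tested in each setting. Without the replicate block the share went from 0.562% to 1.07% in luminal against basal GFP+ cells and from 0% to 0.217% against intermediate GFP+ cells, Wfdc18 passed in the latter, and the changes of Wfdc18 and Trf in intermediate against basal (-0.58 and 0.23) and of Lalba and Trf in luminal GFP+ against GFP- (-0.81 and -1.45) turned. In the order luminal against basal, luminal against intermediate, intermediate against basal, luminal GFP+ against GFP- and chase, DESeq2 called 11.3%, 6.67%, 0.486%, 2.14% and 1.61%, and edgeR with no filter on low counts 3.08%, 1.01%, 0.0752%, 0.281% and 0.441%. Thinned cells gave 2.69% and 0.666% in the first 2, and up to 100 Dcpp1 reads 2.01% and 0.375%, with 0.00875% (1 gene) in the fourth. The Cre line at a chase time as unit gave 1.13% in the first. Without 1 plate in turn the shares ran from 0.0407% to 0.361%, 0% to 0.0628%, 0% to 0%, 0% to 0% and, for the chase, 0% to 0.203%, the highest without plate 3.

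Trf in intermediate against basal turned with thinned cells (0.13), with up to 100 Dcpp1 reads (0.084) and without single plates (-0.95 to 0.89). Without single plates Ltf in luminal GFP+ against GFP- ran from -3.48 to 0.95, the Wfdc18 slope from -0.27 to 0.10 and the Ltf slope from -1.41 to 1.11, and these slopes were 0.015 and 1.40 without the cell of most reads. The causes were not tested. Of the changes of members under other settings, 260 kept direction and side of the threshold, 21 newly passed, 5 lost the call and 16 turned. Each comparison rested on 4 to 6 plates, some with as few as 3 cells.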

Other observations

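The 6-week plate was sequenced a second time, and 44 of its kept cells could be compared between runs. The log2 levels correlated at a Pearson r of 0.982 for Csn3, 0.979 for Wfdc18, 0.971 for Trf, 0.974 for Ltf and 0.976 for Lalba. A read in only 1 of the runs was found in 5 cells for Csn3, 2 for Wfdc18, 5 for Trf, 4 for Ltf and 0 for Lalba, with at most 2 reads in such a cell. Both runs read the same libraries, so they are 1 replicate.

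Among the 21 removed cells with under 2 Epcam reads and over 100000 reads, Trf was at 167.7 CPM with a read in 7 cells, Csn3 at 0.656 CPM and Ltf at 0.0938 CPM. The 48 cells with over 100 Dcpp1 reads held 415 CPM of Csn3 with a read in 16 cells, 39.6 CPM of Trf and 200.6 CPM of Ltf.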
